A study of Mus musculus with 21 samples.

Results

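DEAD-box and DEAH-box proteins are RNA helicases that use ATP to unwind or remodel RNA and RNA-protein complexes, and *Ddx6* belongs to this family. The genes described here are the protein-coding genes whose symbol is Ddx or Dhx followed by a digit, without *Ddx6* itself and without the 1 such gene on chromosome Y. The rule found 51 genes, 35 with a Ddx and 16 with a Dhx symbol, among the 51559 rows of the deposited count tables. Of the 51, 50 passed the filter on low counts and were tested with 14518 genes in all; *Ddx60* did not pass it. The values below describe whether any of these paralogs was made more, or kept longer, in mouse embryonic stem cells (ESCs) without DDX6.

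DDX6 is a cytoplasmic helicase that connects deadenylated and microRNA-bound mRNAs to translational repression and decapping, and it is a core component of P-bodies. Its relatives work at almost every other step in the life of RNA: splicing, export, ribosome assembly, translation, mitochondrial RNA metabolism and the sensing of foreign RNA. Many of them are required in every dividing cell, whereas a few, such as *Ddx4*, are known as markers of particular lineages.

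The cells were ESCs grown in LIF and 2i, and the 7 cultures were 3 wild-type cultures and 4 *Ddx6* KO cultures, with 2 cultures of each of 2 KO clones. Each KO line is 1 clone; by the study's methods one carries an insertion of 1 nt and the other a large deletion, both at the start of exon 7. All cultures, wild type included, were labelled with 500 µM 4-thiouridine (4sU) for 30 min, which marks newly made RNA. From each culture a library of 4sU-labelled (nascent) RNA and a library of total RNA were sequenced, and reads were counted per gene. The labels do not say how cultures of 1 clone were kept apart, so p-values measure the spread between these cultures, and effects of DDX6 loss and of a clone's history cannot be told apart where both clones share them.

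Nascent libraries held between 2441639 and 3570192 counts and total RNA libraries between 5724179 and 7369651, so 3 counts correspond to at most 1.23 CPM, the count scaled to the library's total. In total RNA, 8 of 8 ESC markers were above 3 CPM in every library. They summed to 4561 to 4671 CPM in wild type against 4995 to 5194 CPM in the KO. The marker sums here are CPM before the correction for library composition described below. With it, 4 ESC markers were higher (*Nanog*, *Zfp42*, *Esrrb* and *Klf4*) and 2 lower (*Tfcp2l1* and *Dppa5a*) at an adjusted p below 0.05 by edgeR. Of all tested genes 19.5% were higher and 31.0% lower. The 6 epiblast and primed markers summed to 132 to 147 CPM in wild type against 83.6 to 94.8 CPM in the KO. The 8 fibroblast feeder markers summed to 4.37 to 6.83 CPM in wild-type libraries and to 13.1 to 16.3 CPM in KO libraries, with *Postn* and *Dcn* at 0 counts in every total RNA library; the part of these differences in the results was not tested. In the 4 KO cultures *Ddx6* mRNA fell from 314, 357 and 363 CPM in wild type to 59.6 and 70.8 CPM in clone 1 and to 23.9 and 22.5 CPM in clone 2. Nascent *Ddx6* RNA was detected in every culture: 225, 226 and 251 CPM in wild type, 240.2 and 245 CPM for clone 1, 175 and 155 CPM for clone 2.

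The *Ddx6* guide RNA targets a stretch of exon 7 that encodes part of the helicase core, which paralogs share, so the closest stretch in every paralog was sought. In the exons of annotated coding transcripts (Gencode, GRCm38), both strands were searched for 20 bases followed by NGG, the motif that Cas9 needs. The site in *Ddx6* is at chr9:44626390-44626409 on the plus strand; it was located as the first 20 bases followed by NGG inside exon 7, and these letters equal the guide named in the study's methods. The closest paralog was *Ddx49*, with 3 mismatches in exon 4 at chr8:70297940-70297959 on the minus strand, and no other member had fewer than 5. Among 12113 tested protein-coding genes other than *Ddx6*, *Ddx49* was also the only 1 with at most 3 mismatches, or 0.00826% of them. Next came *Ddx24* with 5 mismatches at chr12:103418127-103418146, followed with 6 each by *Ddx25* at chr9:35551318-35551337, *Ddx28* at chr8:106010637-106010656, *Ddx39* at chr8:83721023-83721042, and the neighbouring copies *Ddx19a* and *Ddx19b*. The median over the 51 members was 9 mismatches and was also 9 over the tested genes. The sequences are shown for the target, for the closest 2 members and for 3 of the 5 tied at 6 mismatches, in lower case where they equal the guide and in capitals where they differ from it.
Ddx6: catgtggtgatcgctacccc
Ddx49: catgtAgtgatTgcCacccc
Ddx24: GaGAtTgtgatcgcCacccc
Ddx25: GatgtgAtgatTgACacccA
Ddx28: GatgtgTtAGtGgctacTcc
Ddx39: catgtTgtgGtGgGGacAcc

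Counted from the 5′ end of the guide, the *Ddx49* substitutions are G6A, C12T and T15C. The match is a description of letters; whether any member was edited was not measured in these data, and introns and intergenic sequence were not searched.

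In wild-type total RNA the members covered a wide range of levels. Levels are given here in TPM, which divides each count by gene length and scales the library to a fixed sum, so that genes can be set side by side. *Ddx3x*, a helicase of translation initiation, had the highest level at 340 ± 19.2 TPM (SD, n = 3), and *Ddx5*, a coregulator of transcription and microRNA processing, followed at 300.0 ± 11 TPM. *Ddx21* (255 ± 25.7 TPM), which acts in ribosome biogenesis, and *Dhx15* (249 ± 4.86 TPM), which disassembles spliceosomes, did not differ beyond their spread. *Ddx39b* (169 ± 2.5 TPM), an mRNA export helicase, came next, followed by *Dhx16* (158 ± 13.7 TPM), a spliceosome helicase. The wild-type values of *Ddx39b* were all above those of *Dhx16*, though the *Ddx39b* mean lay within the SD of *Dhx16*. These 6 genes made up 34.9% of the summed level of all 51 members. *Ddx6*, at 114 ± 10.6 TPM, ranked 12th among the 52 genes, and 15 members were above 100 TPM. At the other end, *Ddx25*, *Dhx58* and *Ddx60* were below 1 TPM.

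**Figure D1:**
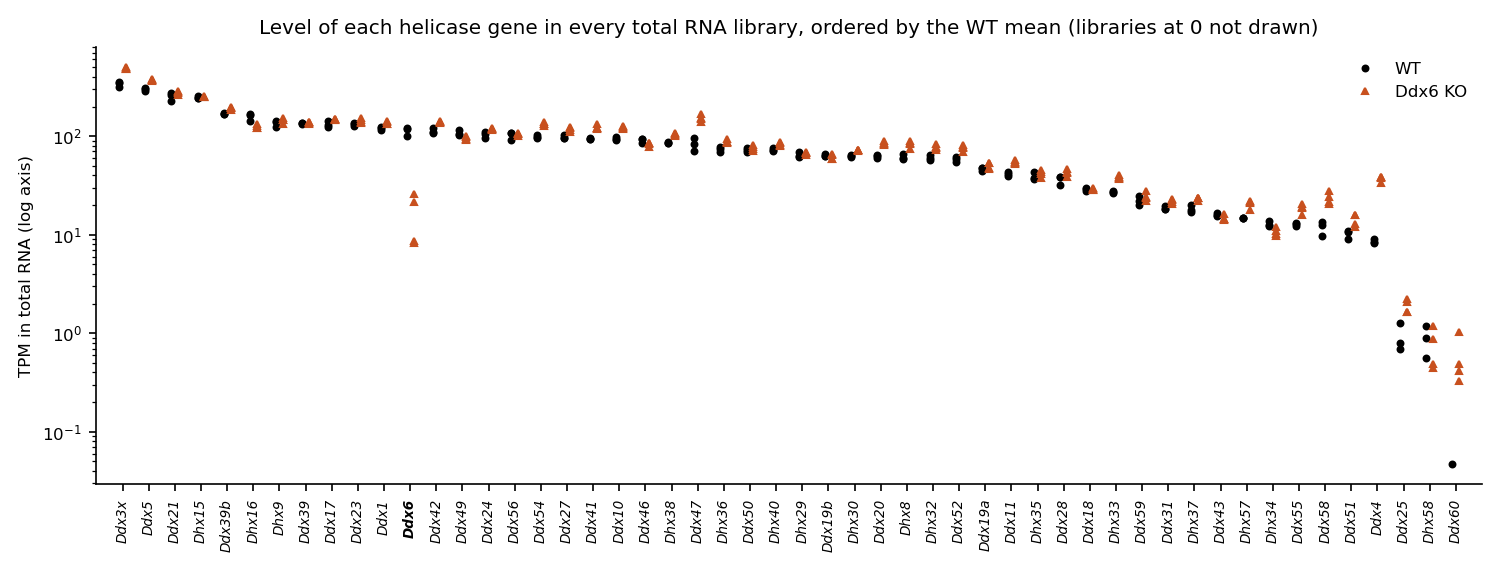
Level of each member and of *Ddx6* (bold) in every total RNA library, in TPM on a log axis, ordered by the wild-type mean; black circles are the 3 wild-type and orange triangles the 4 *Ddx6* KO libraries. *Ddx6* drops from rank 12 to below most members, while *Ddx4*, near the low end, moves up by more than any other tested member.

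Changes were tested with edgeR's quasi-likelihood test over all 14 libraries, with p-values adjusted by the Benjamini-Hochberg method over all 14518 tested genes. A gene was called when its adjusted p was below 0.05 and its log2 fold change was above 1 or below -1; passing the adjusted p alone is stated as such. In nascent RNA 2 members were called, *Ddx4* and *Ddx58*, both higher (4% of the tested members). Of all tested genes 10.9% were called, 5.14% higher and 5.79% lower. In total RNA 1 member was called, *Ddx4* (2%), whereas 10.1% of all tested genes were, 5.28% higher and 4.86% lower. For mRNA stability, measured as the change in the ratio of total to nascent RNA, 0 members were called, against 1.08% of all tested genes (0.689% higher and 0.393% lower). By edgeR, 14 of 50 members had an unadjusted p below 0.05 for stability. The share of all tested genes at that unadjusted threshold was not computed, so this count has no background. By the adjusted p alone 8 members passed, and DESeq2 and limma-voom also called 0 members for stability. The members' shares of calls were thus below those of all tested genes in nascent and total RNA. Comparisons with all tested genes, here and below, were not matched for expression level.

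With the adjusted p alone, 4 members were higher and 11 lower in nascent RNA (8% and 22%, against 20.6% and 21.0% of all tested genes). In total RNA 6 were higher and 17 lower (12% and 34%, against 19.5% and 31.0%), and for stability 5 were higher and 3 lower (10% and 6%, against 3.78% and 8.60%). The members' median log2 fold change was -0.01 in nascent RNA, -0.08 in total RNA and -0.07 for stability, beside 0.00, -0.10 and -0.09 over all tested genes. The interquartile range of the members was -0.21 to 0.12 in nascent RNA and -0.22 to 0.10 in total RNA, narrower than the -0.33 to 0.32 and -0.40 to 0.23 of all tested genes. After scaling, the wild-type and KO libraries did not overlap in nascent RNA for 14 members (28%, against 41.7% of all tested genes), of which 4 were higher and 10 lower (background 20.5% and 21.2%). In total RNA they did not overlap for 27 members (54%, against 52.4%), 9 higher and 18 lower (background 20.4% and 32.0%), and for stability for 12 (24%, against 22.9%), 6 in each direction (background 7.45% and 15.5%). In all, 30 of the 50 tested members passed the adjusted p in at least 1 comparison and 20 in none. The share of all tested genes that passed in at least 1 was not computed, so this count has no background.

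**Figure D2:**
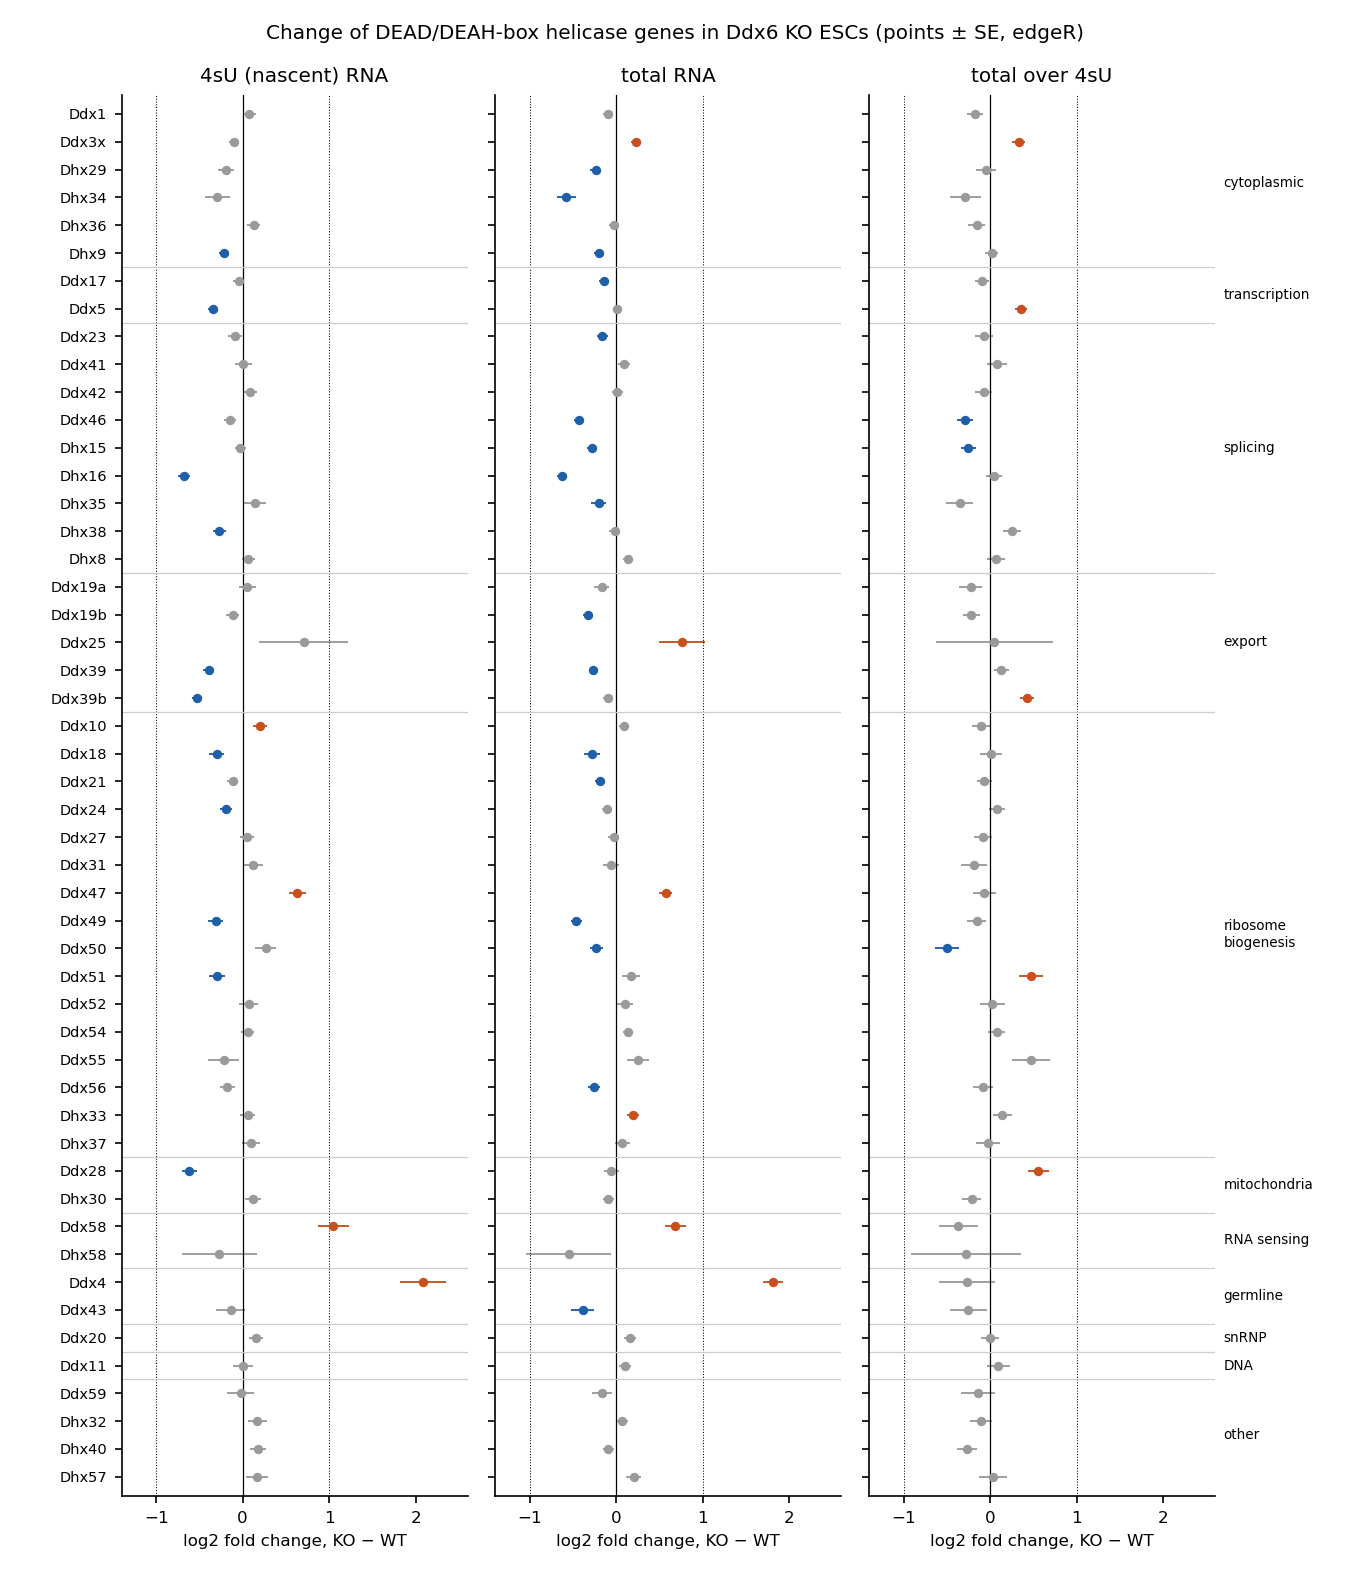
Log2 fold change (*Ddx6* KO minus wild type) with its SE from edgeR for the 50 tested members in nascent RNA, total RNA and total over nascent RNA, grouped by role; orange marks adjusted p below 0.05 and higher, blue lower, grey not past it, and dotted lines mark the fold threshold. *Ddx4* is the only member beyond the upper dotted line in both nascent and total RNA.

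The scaling between libraries decided many of these smaller directions. Trimmed-mean (TMM) factors, which correct library totals for composition, ran from 0.923 to 0.944 in wild type and from 1.04 to 1.07 in the KO. With library totals alone, the median log2 fold change of all tested genes was 0.21 in nascent RNA and 0.06 in total RNA, in place of 0.00 and -0.10. The members past the adjusted p became 24 higher and 5 lower in nascent RNA, beside 36.3% and 12.7% of all tested genes. In total RNA they became 20 higher and 5 lower, beside 29.4% and 19.4% of all tested genes. With TMM factors estimated within each assay, the split in total RNA was 15 higher and 9 lower (24.8% and 24.1% of all tested genes). For stability it was 6 higher and 0 lower (5.04% and 3.97% of all tested genes). Across these 3 scalings, 4 members were higher and 5 lower in nascent RNA every time, 6 were higher and 5 lower in total RNA, and 5 were higher and 0 lower in stability. These are the members named as higher or lower below, unless stated otherwise. The share of all tested genes that kept their direction under all 3 scalings was not computed, so these counts cannot be set against a background.

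**Figure D3:**
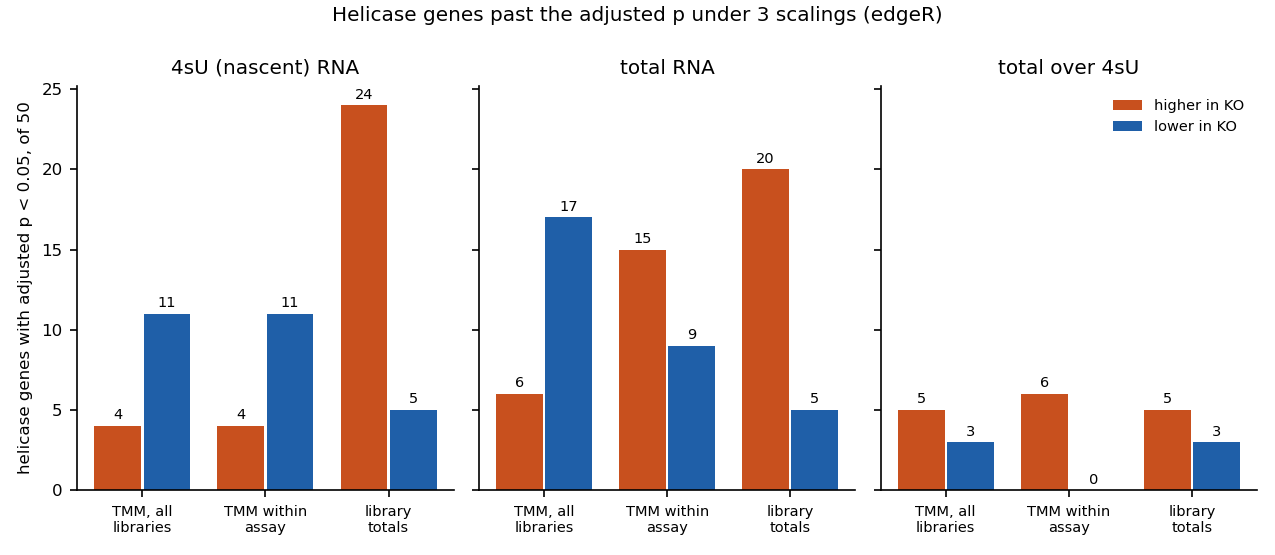
Number of the 50 tested members past the adjusted p of 0.05 in edgeR, higher (orange) or lower (blue) in *Ddx6* KO, under TMM over all libraries, TMM within each assay and library totals alone. In total RNA the count of higher members goes from 6 to 15 and 20 and that of lower members from 17 to 9 and 5. The shares of all tested genes go from 19.5% to 24.8% and 29.4% higher and from 31.0% to 24.1% and 19.4% lower.

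Among members that work on cytoplasmic mRNA, where DDX6 itself acts, *Ddx3x* was the only 1 of 6 higher in total RNA. With TMM over all libraries 3 of the 6 were lower by the adjusted p. Of all tested genes 19.5% were higher and 31.0% lower. DDX3X unwinds structured 5′ leaders during translation initiation, and its gene lies on chromosome X (13280970 to 13294052, plus strand, GRCm38). Its total RNA was 761, 817 and 818 CPM in wild type and 1043, 1009, 1084 and 1041 CPM in *Ddx6* KO. Every KO library was above every wild-type library. The log2 fold change was 0.23 (SE 0.06, adjusted p = 4.2e-04 by edgeR), a fold of 1.17, and it was 0.32 and 0.39 under the other 2 scalings. Nascent *Ddx3x* RNA overlapped between the groups, at 1091, 1028 and 1173 CPM against 1159, 1259, 1260 and 1048 CPM, with a log2 fold change of -0.10 (adjusted p = 0.161 by edgeR). The ratio of total to nascent *Ddx3x* RNA was accordingly higher, by 0.33 in log2 units (SE 0.08, adjusted p = 2.9e-03 by edgeR).

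The Y-linked copy of *Ddx3x*, *Ddx3y*, which the rule leaves out, differed between the clones. Its total RNA was 52.0 to 54.7 CPM in wild type, 114 and 106 CPM in clone 1, and 0.27 and 0.32 CPM in clone 2, where it rested on 2 counts per library. *Ddx3x* itself did not differ detectably between the clones in total RNA (clone 2 minus clone 1, 0.05 on the log2 scale). The sum of *Ddx3x* and *Ddx3y* per length was 363 ± 19.3 TPM in wild type and 514 TPM in *Ddx6* KO, a ratio of 1.42 (1.16 on the TMM scale), with p = 0.0571 in the exact permutation test (two-sided, 3 against 4 cultures), the smallest p this design allows. Reads that these copies and the retrogene *D1Pas1* share are not in the counts, since only uniquely mapped reads were kept.

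The other 5 members of this group did not rise in total RNA. *Dhx34*, a helicase of nonsense-mediated decay, was lower, at 28.0, 28.1 and 30.3 CPM in wild type against 20.5, 19.5, 21.98 and 24.1 CPM in *Ddx6* KO. Its groups did not overlap, and the log2 fold change was -0.58 (SE 0.11, adjusted p = 1.1e-05 by edgeR). *Dhx29*, which helps ribosomes scan structured leaders, had a log2 fold change of -0.24 and *Dhx9*, a nuclear and cytoplasmic helicase, one of -0.20; both passed the adjusted p by edgeR (9.6e-04 and 3.1e-03) but not with library totals alone (-0.08 and -0.04), and *Dhx9* also not with TMM within each assay (-0.10) or with clone 2 alone (-0.13). *Ddx1* and *Dhx36*, the latter known for resolving G-quadruplexes, were at -0.10 and -0.03 and did not pass it. Summed per length, the 6 genes were at 746 ± 41.2 TPM in wild type and 936 TPM in *Ddx6* KO, a ratio of 1.25 on the TPM scale but 1.02 after TMM scaling.

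*Ddx4*, the germ-cell helicase also known as Vasa, had the largest rise of all tested members. The gene is on the minus strand of chromosome 13 (112598333 to 112652475, GRCm38). Total RNA held 69, 79 and 90 counts in wild type, or 12.1, 12.1 and 12.8 CPM. It held 268, 366, 368 and 304 counts in *Ddx6* KO, or 44.4, 50.0, 49.9 and 48.9 CPM. Every KO library was far above every wild-type library; in these bulk samples, more cells with the transcript and more transcript per cell cannot be told apart. Fitted against wild type on its own, clone 1 had a log2 fold change of 1.80 and clone 2 one of 1.86. The log2 fold change over all cultures was 1.81 (SE 0.12, adjusted p = 5.1e-20 by edgeR), a fold of 3.52. Nascent *Ddx4* RNA rested on 4 to 13 counts per wild-type library and 39 to 53 per KO library, and its log2 fold change was 2.08 (SE 0.27, adjusted p = 2.4e-09 by edgeR). The ratio of total to nascent RNA was 2.04 ± 0.67 (SD, n = 3) on the log2 scale in wild type, the highest of the members, and 1.78 ± 0.08 (SD, n = 4) in *Ddx6* KO, a difference that did not pass the adjusted p (-0.27, SE 0.32, adjusted p = 0.67 by edgeR). Even in *Ddx6* KO, *Ddx4* reached 37.2 ± 2.24 TPM, about the level of *Ddx28* in wild type (36.1 TPM). *Ddx43*, a second germline helicase, did not share this: it had 15.9 TPM in wild type and a log2 fold change of -0.39 in total RNA (adjusted p = 0.013 by edgeR), which was -0.30 with TMM within assays and -0.23 with library totals and did not pass under either.

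The 3 cytoplasmic sensors of foreign RNA were all low in wild type. *Ddx58*, which encodes RIG-I and lies on chromosome 4 (40203773 to 40239828, minus strand, GRCm38), was higher at both levels. Its nascent RNA was 9.42, 16.8 and 13.7 CPM in wild type and 29.4, 28.5, 41.0 and 30.5 CPM in *Ddx6* KO. Its total RNA was 19.4, 26.0 and 24.0 CPM in wild type and 49.5, 36.1, 43.2 and 38.1 CPM in *Ddx6* KO, so neither overlapped. The log2 fold change was 1.05 in nascent RNA (SE 0.18, adjusted p = 6.7e-06) and 0.68 in total RNA (SE 0.12, adjusted p = 6.5e-06), both by edgeR. The nascent value sat at the fold threshold: it was 0.93 without culture 1 of clone 2, 0.87 without wild-type culture 1 and 0.91 with clone 1 alone, and stayed past the adjusted p each time. *Ddx60*, an interferon-inducible helicase, had 0, 1 and 0 counts in wild-type total RNA and 6, 9, 23 and 9 in *Ddx6* KO. Summed over libraries, the rate per library total was 33.7 times as high in *Ddx6* KO, with an exact 95% interval from 5.75 to 1358 that covers counting error only. *Dhx58*, which encodes LGP2, had 4 to 10 counts in wild type and 3 to 8 in *Ddx6* KO, and its log2 difference of -0.55 (SE 0.49) did not pass the adjusted p.

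Interferon-responsive genes often carry a repeated GAAA motif in their promoters, so the promoters of the members were searched for GAAANNGAAA on both strands. RefSeq promoters on GRCm38.p6, from 250 bases before to 50 bases after the start, were given for 46 of the 51 members. The sensor gene *Dhx58* was not among the 46, so its promoter was not searched. The letters were found in 3 of the 46 members, *Ddx49*, *Ddx58* and *Ddx60*, or 6.52%, and in 3.99% of the 27025 genes in the table. Counted by promoter, 4 of 57 member promoters and 3.44% of all 32851 held them. *Ddx49* was lower in *Ddx6* KO, as described below. They are printed for the 2 sensors whose counts were higher in *Ddx6* KO, with the motif in capitals: *Ddx58* at chr4:40239804-40239833 on the plus strand, which is opposite to the gene, and *Ddx60* at chr8:61928024-61928053 on the plus strand.
Ddx58: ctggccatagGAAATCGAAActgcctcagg
Ddx60: gtgatgaatgGAAACCGAAActtaaagctt

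*Dhx16* was the only member lower under every scaling in both nascent and total RNA. This helicase, required for spliceosome activation, fell in nascent RNA from 163, 166 and 159 CPM in wild type to 121, 112, 119 and 117 CPM in *Ddx6* KO. In total RNA it fell from 244, 278 and 276 CPM to 196, 199.5, 185 and 184 CPM. The groups did not overlap in either, and the log2 fold changes of -0.68 (SE 0.07) and -0.63 (SE 0.06) were the lowest among the members in both (adjusted p = 6.6e-12 and 3.4e-14 by edgeR). The ratio of total to nascent *Dhx16* RNA differed by 0.04, which did not pass the adjusted p (0.83 by edgeR). *Ddx46*, which acts in early spliceosome assembly, fell in total RNA from 252, 272 and 266 CPM to 205, 219, 220.4 and 225 CPM, a log2 difference of -0.44 (SE 0.06, adjusted p = 3.1e-09 by edgeR). Of the 9 splicing helicases, 0 were higher and 5 lower in total RNA by the adjusted p (19.5% and 31.0% of all tested genes), and their median log2 fold change was -0.16, beside -0.10 over all tested genes. *Dhx16* and *Ddx46* were the only ones of the 5 lower under every scaling. With library totals alone 3 splicing helicases were higher and 2 lower (29.4% and 19.4% of all tested genes).

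The export helicases *Ddx39* (the annotation's symbol for *Ddx39a*) and *Ddx39b*, which are close copies of each other, fell in nascent RNA. *Ddx39b* went from 385, 372 and 365 CPM to 305, 292, 293 and 305 CPM, a log2 difference of -0.53 (SE 0.06, adjusted p = 1.6e-11 by edgeR). *Ddx39* went from 235, 232 and 223 CPM to 197, 183, 221 and 206 CPM, a log2 difference of -0.39 (SE 0.06, adjusted p = 8.3e-07 by edgeR). Small RNA genes lie inside *Ddx39b* (4) and *Ddx5* (2) on the same strand, and reads from them cannot be told apart from those of the host. *Ddx19b*, which releases mRNA at the nuclear pore, was lower in total RNA, from 226, 213 and 207 CPM to 181, 180.4, 199 and 201 CPM (log2 fold change -0.33, SE 0.06, adjusted p = 3.2e-06 by edgeR). *Ddx25*, an export helicase of male germ cells, was higher in total RNA, but on 14 to 29 counts in wild type and 32 to 51 in *Ddx6* KO (log2 fold change 0.76, SE 0.26, adjusted p = 0.014 by edgeR), and it did not pass without wild-type culture 1 (0.61) or 3 (0.64). It reached the filter's 3 CPM in 1 wild-type and 6 KO libraries, so it was tested only because of the group in which it was higher, and its place among the 6 higher members carries no weight.

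Of the 16 helicases of ribosome biogenesis, 2 were higher and 4 lower in nascent RNA by the adjusted p, beside 20.6% and 21.0% of all tested genes. In total RNA 2 were higher and 5 lower, beside 19.5% and 31.0% of all tested genes. Their median log2 fold change in total RNA was 0.02, beside -0.10 over all tested genes. With library totals alone the counts became 9 and 0 in nascent RNA (36.3% and 12.7% of all tested genes) and 8 and 1 in total RNA (29.4% and 19.4%). *Ddx47* was higher at both levels, with nascent RNA of 50.8, 54.8 and 66.2 CPM in wild type against 92.8, 95.1, 115 and 108 CPM, and total RNA of 64.5, 73.4 and 82.6 CPM against 112, 121, 121 and 134 CPM. Neither overlapped, and the log2 fold changes were 0.63 (SE 0.10) and 0.57 (SE 0.08), with adjusted p of 1.2e-06 and 3.8e-08 by edgeR. *Ddx47* is the only member on chromosome 6 (135011612 to 135023776, plus strand, GRCm38), and the 735 tested genes of that chromosome had median log2 fold changes of 0.53 in nascent and 0.43 in total RNA. The part of the chromosome in the *Ddx47* value was not tested. *Dhx33* was higher in total RNA by 0.20 (SE 0.07, adjusted p = 0.016 by edgeR) and *Ddx10* in nascent RNA by 0.20 (SE 0.08, adjusted p = 0.045 by edgeR); the *Ddx10* value was past the threshold in neither DESeq2 nor limma-voom, nor without any 1 of the 3 wild-type cultures.

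*Ddx49*, the member whose coding sequence is closest to the guide, was lower in total RNA. Its values were 126, 111 and 111 CPM in wild type and 92.2, 94.2, 98.8 and 89.2 CPM in *Ddx6* KO. All 4 KO libraries were below all wild-type libraries, and the log2 fold change was -0.46 (SE 0.07, adjusted p = 3.4e-08 by edgeR), a fold of 0.726. It was -0.45 with clone 1 alone and -0.44 with clone 2 alone. In nascent RNA the log2 fold change was -0.31 (SE 0.09, adjusted p = 3.1e-03 by edgeR), but it was -0.10 with library totals alone, where it did not pass. The part of the guide's similarity in this difference was not tested. The other members of this group lower in total RNA with TMM over all libraries were *Ddx18* (-0.28), *Ddx56* (-0.26), *Ddx50* (-0.23) and *Ddx21* (-0.18), none of them under every scaling. *Ddx24*, the next closest to the guide, overlapped between the groups in total RNA (log2 fold change -0.11, adjusted p = 0.11 by edgeR).

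**Figure D4:**
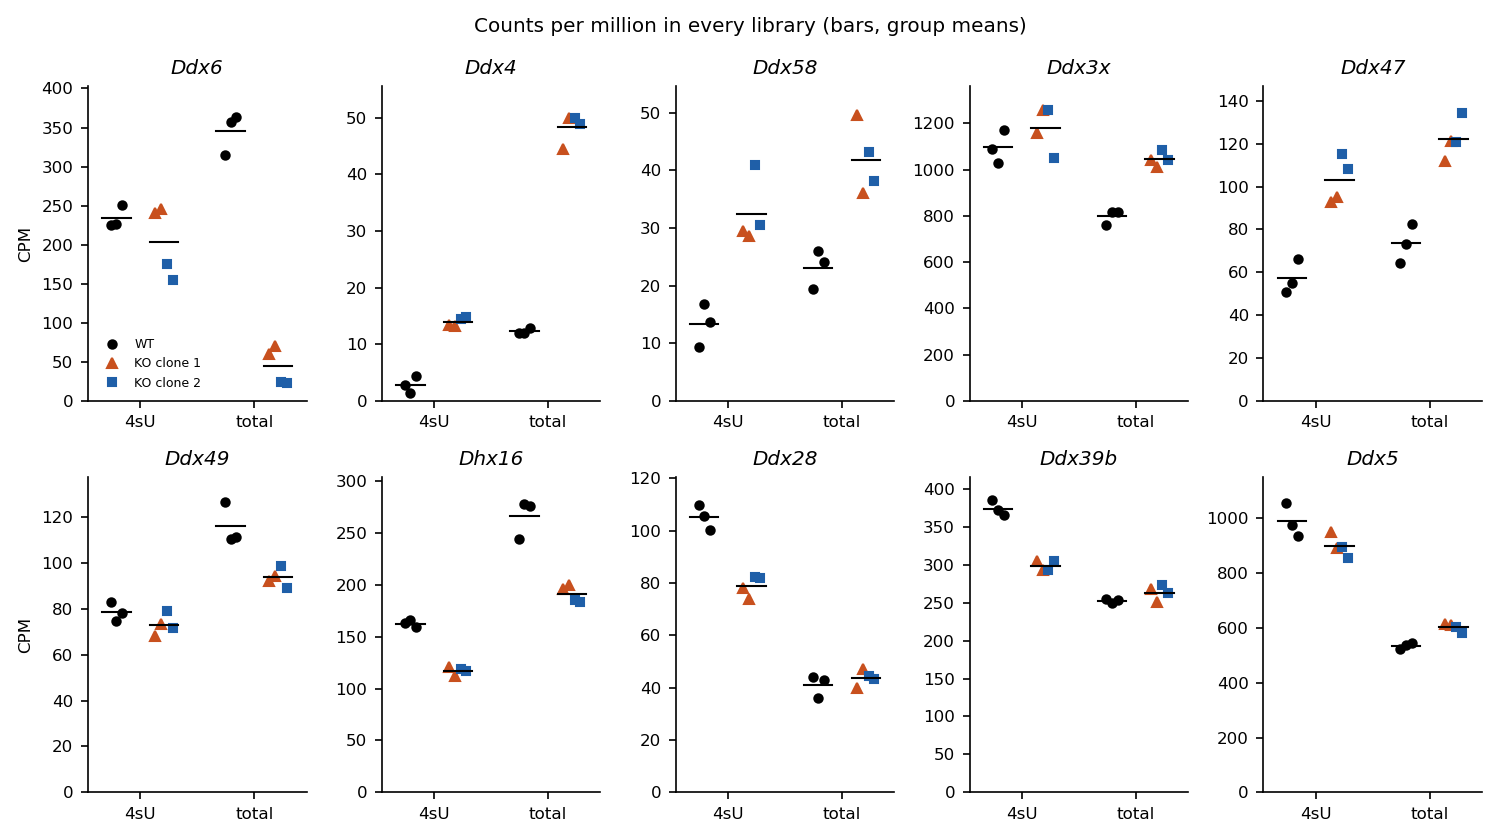
CPM of *Ddx6* and 9 members in every library, with wild type as black circles, KO clone 1 as orange triangles, KO clone 2 as blue squares and group means as bars; each panel has its own axis from 0. *Ddx4*, *Ddx58* and *Ddx47* lie above wild type in both kinds of library, *Dhx16* below in both, and *Ddx28* and *Ddx39b* below in 4sU libraries, where the *Ddx5* points overlap on this scale.

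The ratio of total to nascent RNA, a measure of mRNA stability relative to other genes in the same libraries, spread over a range of almost 4 log2 units among the members in wild type. The values use CPM after TMM scaling with 0.5 CPM added, and the median was 0.50 over the 50 tested members and 0.07 over all tested genes. The lowest ratios were those of *Ddx51* (-1.86 ± 0.11), *Dhx9* (-1.63 ± 0.11) and *Ddx28* (-1.37 ± 0.17), and the highest were those of *Ddx4* (2.04 ± 0.67), *Ddx50* (1.75 ± 0.26) and *Dhx30* (1.57 ± 0.15; all SD, n = 3). In *Ddx6* KO the medians were 0.48 and 0.02. *Ddx6* itself went from 0.54 to -2.31.

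The 5 members with a higher ratio in *Ddx6* KO were *Ddx28*, *Ddx51*, *Ddx39b*, *Ddx5* and *Ddx3x*, all with a ratio below 0 in wild type. For all but *Ddx3x*, the nascent RNA was lower and the total RNA did not pass the adjusted p with TMM over all libraries. For *Ddx51* this turned on the scaling: with library totals alone its nascent RNA did not pass (-0.09), and its total RNA was higher by 0.33 there and by 0.27 with TMM within each assay, both past the adjusted p. *Ddx28*, a helicase of the mitochondrial ribosome, had 110, 106 and 100 CPM of nascent RNA in wild type and 78.3, 73.7, 82.2 and 81.8 CPM in *Ddx6* KO. Its total RNA overlapped, at 44.2, 35.9 and 42.8 CPM against 39.7, 47.1, 44.6 and 43.2 CPM. The ratio was higher by 0.56 (SE 0.12, adjusted p = 1.0e-03 by edgeR). *Ddx39b* was higher by 0.43 (SE 0.08, adjusted p = 7.7e-05), *Ddx5* by 0.36 (SE 0.07, adjusted p = 4.5e-04) and *Ddx51*, a ribosome biogenesis helicase, by 0.47 (SE 0.14, adjusted p = 0.018), all by edgeR. The *Ddx51* value did not pass without wild-type culture 2 (0.41), with clone 1 alone (0.37) or with the single-end run alone (0.26). *Ddx5* had 1057, 975 and 936 CPM of nascent RNA in wild type and 951, 892, 894 and 853 CPM in *Ddx6* KO, and these ranges overlap before TMM scaling but not after it. The total RNA of *Ddx5* was 524, 537 and 545 CPM against 613, 609.8, 603 and 583 CPM, a log2 fold change of 0.01 after TMM scaling and of 0.17 (adjusted p = 4.9e-03 by edgeR) with library totals alone. *Ddx3x* was the only 1 of the 5 whose total RNA passed the adjusted p under all 3 scalings. The change in the ratio is the total RNA change minus the nascent change, and all 3 values share the same libraries.

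The 3 members with a lower ratio were *Ddx50* (-0.50, SE 0.14), *Ddx46* (-0.29, SE 0.09) and *Dhx15* (-0.25, SE 0.09), with adjusted p of 0.014, 0.024 and 0.042 by edgeR. None of them passed with TMM within each assay, where the values were -0.41, -0.20 and -0.16, and none of them passed without wild-type culture 1 (-0.38, -0.27 and -0.21). *Ddx50* was also lost without culture 2 of clone 1, *Ddx46* without culture 1 of clone 1 or wild-type culture 3, and *Dhx15* without culture 2 of clone 1, culture 1 of clone 2 or wild-type culture 2.

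**Figure D5:**
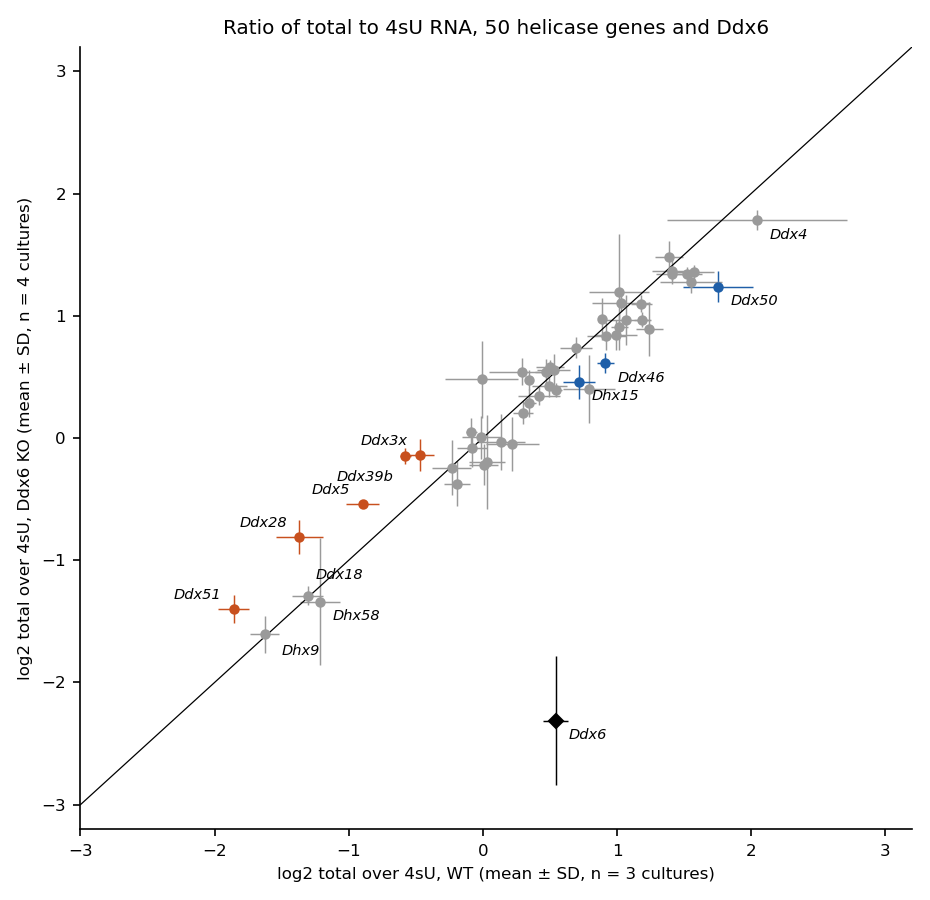
Mean log2 ratio of total to 4sU RNA with its SD in 3 wild-type cultures (horizontal axis) and 4 *Ddx6* KO cultures (vertical axis) for the 50 tested members and *Ddx6*, with the line of equal values; orange and blue mark members with a higher or lower ratio in *Ddx6* KO at an adjusted p below 0.05. Most members lie along the line, whereas *Ddx6* lies far below it at -2.31 in *Ddx6* KO.

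DDX6 acts with the microRNA machinery, and ESCs are known for microRNAs of the miR-290 and miR-302 families that share 1 seed. Mature sequences from RefSeq (GRCm38.p6) with the seed AAGUGCU at bases 2 to 8 were found for 5 microRNAs, of which 2 are printed with the seed in capitals to show what the search in the members used. The first lies on chromosome 7 and the second on chromosome 3.
mmu-miR-294-3p: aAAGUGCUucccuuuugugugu
mmu-miR-302b-3p: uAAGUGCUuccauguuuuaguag

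The matching 8 bases, AGCACTTA, were present in the annotated 3′ UTR of 1 of 51 members, *Ddx52* (chr11:83962737-83962766, plus strand), and in 3.19% of 11878 tested genes. The core GCACTT was present in 11 members (21.6%) and in 30.7% of the tested genes. *Ddx52*, a ribosome biogenesis helicase, did not pass the adjusted p in any comparison, with log2 fold changes of 0.07 in nascent RNA, 0.09 in total RNA and 0.03 for stability.
Ddx52: gtacaagttgaAGCACTTAagactggagcc

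Summed over all 51 members, the level per length in total RNA was 4219 ± 135 TPM in wild type and 4945 TPM in *Ddx6* KO, a ratio of 1.17 (exact permutation test, two-sided, p = 0.0571). With TMM scaling the ratio was 0.957 (exact permutation p = 0.114), so no direction can be given for the family as a whole. Features shorter than 200 bases, which enter every TPM, took between 5.23% and 5.73% of TPM in wild-type total RNA and between 3.98% and 4.71% in *Ddx6* KO. After TMM scaling, *Ddx6* fell by 53.9 CPM per kb, whereas *Ddx3x* was higher by 31.5 and *Ddx4* by 11.6 CPM per kb. The 6 members higher under every scaling, *Ddx25* among them, were chosen for that rise. Their sums of 253 CPM per kb in wild type and 324 in *Ddx6* KO therefore do not test it. In nascent RNA the same 6 summed to 308 and 319 CPM per kb, a ratio of 1.04 (exact permutation test, two-sided, p = 0.457). *Ddx3x* alone made up most of that sum, at 252 CPM per kb in wild type and 236 in *Ddx6* KO. The sum therefore does not describe the others: *Ddx4*, *Ddx47* and *Ddx58* were each higher in nascent RNA under every scaling.

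The 2 clones were compared for every member in a fit with 6 groups. By edgeR, 0 of 50 members passed the adjusted p for a difference between clones in any of the 3 comparisons (0.172%, 0.296% and 0.00689% of all tested genes did), and DESeq2 and limma-voom also gave 0. At an unadjusted p below 0.05 there were 2 members in nascent RNA, 2 in total RNA and 0 for stability. The share of all tested genes at this unadjusted threshold was not computed, so these counts have no background. In total RNA the 2 members were *Ddx51*, higher in clone 2 by 0.35 in log2 units, and *Ddx19b*, by 0.15, neither past the adjusted p.

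Helicases of the same superfamily that carry other symbols also lacked a common direction: of 11 tested, 3 were higher and 5 lower in total RNA by the adjusted p, with a median log2 fold change of -0.15 (all tested genes 19.5%, 31.0% and -0.10). With library totals alone 4 were higher and 3 lower (29.4% and 19.4% of all tested genes). *Eif4a2*, a translation initiation factor of the DEAD-box type, fell from 949, 929 and 928 CPM in wild type to 463, 448, 441 and 441 CPM in *Ddx6* KO (log2 fold change -1.22, SE 0.05, adjusted p = 7.2e-29 by edgeR). *D1Pas1*, the retrogene of the *Ddx3* family, had 63 to 102 counts in wild type and 113 to 254 in *Ddx6* KO, or a log2 difference of 1.00 (SE 0.25, adjusted p = 5.0e-03 by edgeR), and it was higher in clone 2 than in clone 1 by 0.65 in total RNA (adjusted p = 9.9e-03 by edgeR). Among the 15 decapping and P-body partners of DDX6, 1 was higher and 9 were lower in total RNA by the adjusted p (19.5% and 31.0% of all tested genes), and their median log2 fold change was -0.20, beside -0.10 over all tested genes. The count rested on the scaling: 2 were higher and 4 lower with TMM within each assay (24.8% and 24.1% of all tested genes). With library totals alone the partners were 2 higher and 2 lower (29.4% and 19.4%).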

How the data were processed

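Per the labels and the study's methods, the authors trimmed reads with Cutadapt 1.14, aligned them to mm10 with STAR 2.5.3a keeping unique hits, and counted them per gene and by strand with featureCounts 1.5.3 on a Gencode M14 annotation without rRNA. The deposited values are raw counts; the single-end and paired-end counts of each 4sU library were added. The 92 ERCC spike-in rows held 0 counts. Gene lengths, another deposited column, gave TPM. Genes reaching 3 CPM in 3 or more libraries were fitted with edgeR 4.0.16 (R 4.3.3; robust quasi-likelihood, TMM; genotype, assay and their interaction). Reported alternatives used DESeq2 1.42.0 and limma 3.58.1. Exact permutation tests used scipy 1.17.1. In simulated data, log2 changes of 1.5, up or down, were planted in KO total RNA, without differences between clones. In total RNA 182 of 196 such genes were called among 14231, with 5 others, and for stability 159 of 196, with 2 others. Most members changed by less, so these rates do not cover changes of their size. Sample labels gave the groups. Members and lists were chosen with earlier results of these data known. Named members were those called, the 5 largest rises and falls past the adjusted p per comparison, the 6 highest levels, the cytoplasmic list, the 3 lowest and highest ratios and those on chromosome 6; other names were chosen after their values were seen. Protein identity to DDX6 was not analysed here. Unpaired fits are reported: deviations of the 4sU and total library of a culture correlated between 0.00354 and 0.125.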

Additional observations from a re-analysis of the deposited data

Results flagged for a closer look

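Among 72 groups of 4 *Ddx6* KO values examined for the named members, 2 held a value far from the other 3 by Dixon's criterion, where chance gives about 1 in 20, or 3.6. Nascent *Ddx58* RNA was 40.954 CPM in culture 1 of clone 2 and between 28.5 and 30.5 CPM in the other 3. The log2 ratio of total to nascent *Ddx5* RNA was -0.59 (-0.59134) in culture 1 of clone 1 and between -0.524 and -0.519 in the other 3.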

How the results depend on the processing

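Counts of members called stayed within 1.5 times of the reported ones except as follows. In nascent RNA, 1 member in place of 2 was called with the paired-end run alone, with clone 1 alone, and as the lowest of the fits that leave out 1 culture, which gave 1 to 2. In total RNA, 2 in place of 1 were called without a filter (*Ddx4* and *Ddx60*) and, at most, with 1 culture left out (1 to 2; *Ddx25* without wild-type culture 2). With the adjusted p alone, 15, 23 and 8 members passed in nascent RNA, total RNA and stability. Members past the adjusted p in nascent RNA were 24 higher and 5 lower with library totals, and 7 lower with clone 2 alone. In total RNA they were 15 higher and 9 lower with TMM within assays, 20 and 5 with library totals, 17 and 7 without a filter, and 9 lower with clone 2 alone. The shares of all tested genes under the other scalings are given above. Those for fits without a filter, with 1 clone or run alone, with 1 culture left out or with a block were not computed. The counts of members from these fits therefore have no background. Lower stability held for 0 members with TMM within assays, without a filter or with clone 2 alone, for 1 with DESeq2 or the paired-end run alone, and for 0 to 3 with 1 culture left out. The ratio of summed levels was 0.957 in total and 0.903 in 4sU libraries on the TMM scale. *Dhx15* nascent RNA was higher by 0.18 with library totals (-0.03 as reported, neither direction claimed). With culture as a block, 5 members were higher and 3 lower in stability, and with replicate number as a block 2 were called in nascent RNA, 1 in total RNA and 0 in stability. The called members were the same with either block, and *Ddx25* in total RNA (0.65) did not pass the adjusted p with the number block. Deviations of libraries sharing a number correlated between -0.0381 and 0.0885, so the numbers were not taken as pairs. Of 1342 values of named members under alternatives, 1247 stayed on their side of the threshold (54 values turned sign with neither value past it), 73 no longer passed, 21 newly passed and 1 turned. The cause of these changes was not tested, beyond the shift in the median given above. Nascent libraries were shallower than total RNA libraries, and nascent values of *Ddx25*, *Ddx60* and *Dhx58* rest on 13 counts or fewer per library.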
